A study of Rattus norvegicus with 15 samples.

Results

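Cyclic AMP, G protein and calcium kinase signalling genes were followed in the adrenal medulla of rats during the development of pheochromocytoma, the tumor of the catecholamine-secreting chromaffin cells. Genes were taken by name: adenylyl cyclases, phosphodiesterases, protein kinase A (PKA) subunits, inhibitors and anchoring proteins, Rapgef exchange factors, the CREB family, G protein subunits, RGS proteins, arrestins, Gprc5 receptors, phospholipase C, diacylglycerol kinases, protein kinase C, calmodulin and its kinases, calcineurin and guanylyl cyclases. The rule found 114 genes (113 symbols, all protein coding) among the 8621 genes that the deposited tables hold. A gene is in a table only where the authors had called it in that comparison, so the members were in part chosen by these contrasts, and counts of changed members describe them and are no independent test. The table of PCC vs. WT listed 100 members, that of HYP vs. WT 62 and the last, PCC vs. HYP, 61, and 83 had values in all 15 rats. Of the 114, 31 were in 1 table, 57 in 2 and 26 in all 3.

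All rats were of the Sprague-Dawley strain. The 5 wildtype (WT) rats were 7 to 9.5 months old. The other 10 rats were MENX mutants, a line that arose in a Sprague-Dawley colony by a spontaneous mutation of *Cdkn1b*, which encodes the cell cycle inhibitor p27. They carry it in every cell and also develop tumors of other endocrine glands. Of these, 5 had a hyperplastic medulla (HYP) at 4 to 5 months and 5 had pheochromocytoma (PCC) at 7 to 9.5 months. By the methods of the study the PCC group pools 2 stages, PCC (2 rats) and advanced PCC (3 rats), which the labels do not tell apart, so they are treated as 1 group and the part of stage in the spread of PCC rats was not tested. HYP and WT rats thus differed in age as well as in genotype, which cannot be told apart, while PCC and WT rats were of one age range. PCC and HYP rats differed in age as well as in stage, which cannot be told apart either. Medulla was macrodissected from the cortex and its polyadenylated RNA was sequenced. Below, WT5 stands for WT replicate 5 and so on, and 5 values in a row are replicates 1 to 5.

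The pathway runs from receptors at the cell surface to kinases. A receptor loads a G protein alpha subunit with GTP; Gs alpha switches adenylyl cyclases on, Gi alpha switches them off, and Gq alpha switches phospholipase C on, until an RGS protein makes the alpha subunit hydrolyse its GTP. Cyclic AMP releases the catalytic PKA subunits from the regulatory ones and opens the exchange factors Epac1 and Epac2, phosphodiesterases destroy it, and PKA phosphorylates CREB family transcription factors. Phospholipase C yields diacylglycerol, which activates protein kinase C, and inositol trisphosphate, which frees calcium for calmodulin and its kinases. In chromaffin cells these routes are known to control catecholamine release and synthesis, and in the neighbouring cortex cyclic AMP carries the signal of ACTH for steroid synthesis.

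The reads counted on genes ranged from 16315018 to 23831269 per rat. *Cdkn1b* itself was measured at 42.6 to 75.9 CPM (reads of a gene scaled to an effective library size, described under processing) in WT, 79.9 to 124.7 in HYP and 108 to 175 in PCC rats. The mutation shifts the reading frame, so the read count does not check the genotype. Tissue markers moved with the groups. Only those with values in all rats were used, 12 of 19 cortex and 13 of 20 chromaffin genes, and the other lists were cut likewise. Such genes are ones the authors had called in more than 1 comparison, so they were in part chosen for differing between these groups. *Pnmt*, of the chromaffin list, was not among them. The summed level of the 12 cortex markers, the steroid enzyme genes *Hsd3b1* and *Cyp21a1* among them, was 30129 to 58474 CPM in WT, 13429 to 33642 in HYP and 1024 to 15086 in PCC. The summed level of 13 chromaffin markers, *Th* and *Dbh* among them, was 1941 to 9919, 11367 to 15636 and 18762 to 38217 CPM. None of the markers used from these 2 lists was at 0 throughout. As a median of CPM over the WT mean, the cortex list stood at 0.993 ± 0.256 (SD, n = 5) in WT, 0.478 ± 0.122 in HYP and 0.188 ± 0.138 in PCC rats, and the chromaffin list at 0.992 ± 0.484, 2.24 ± 0.276 and 4.58 ± 0.801. WT5 stood apart from the other WT rats in its chromaffin level, 0.266 against 0.861 to 1.53. The endothelial list went from 0.996 ± 0.116 in WT to 0.458 ± 0.182 in PCC, and the leukocyte list from 0.993 ± 0.157 to 0.411 ± 0.191 with 3 of its 18 genes measured throughout. In PCC vs. WT 1 of these 3, the macrophage marker *Cd163*, was higher and 2 were lower. Of 7 endothelial genes tested 1, *Vwf*, was higher and 5 were lower. The sustentacular and Schwann cell list went from 1.01 ± 0.488 to 2.80 ± 1.11 (6 of 8 genes higher and 2 lower in PCC vs. WT) and the fibroblast list from 1.01 ± 0.257 to 2.65 ± 1.00. The part of these shifts in the results that follow was not tested, and in whole tissue fewer cells of a type and less RNA per cell cannot be told apart.

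**Figure D1:**
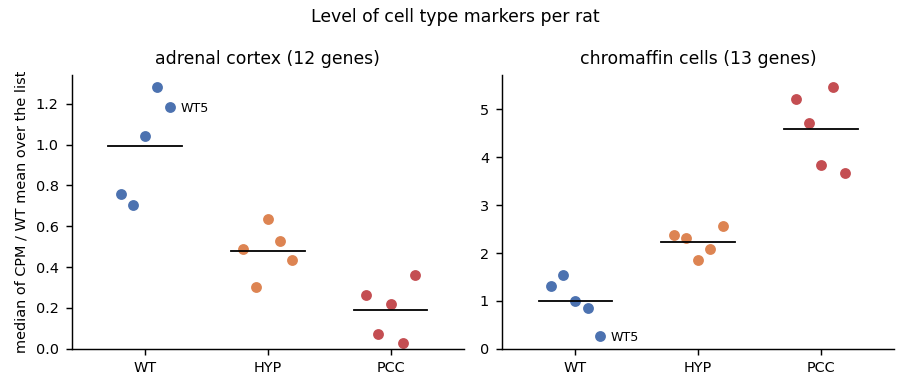
Level of adrenal cortex markers (left, 12 of 19 genes) and chromaffin cell markers (right, 13 of 20 genes) in each rat, as the median over these genes of CPM divided by the WT mean (no unit, axis from 0), with a bar at the group mean. The genes shown are those with values in all rats. The cortex level is highest in WT and lowest in PCC, the chromaffin level the reverse, and WT5 has the lowest chromaffin level of all rats.

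The comparison of PCC with WT asks how signalling genes of the tumor differ from those of normal medulla of the same age. The largest falls were those of the orphan receptor gene *Gprc5b* (59.1-fold lower), the RGS gene *Rgs2* (26.2-fold), the transcription factor genes *Creb3l1* (23.1-fold) and *Crem* (18.7-fold). The largest rises were those of the PKA anchoring protein gene *Sphkap*, which had 1 read in all WT rats, the phospholipase C gene *Plch2* (57.3-fold higher), the PKA inhibitor gene *Pkib* (43.6-fold), the diacylglycerol kinase gene *Dgkh* (26.0-fold) and *Rgs4* (22.0-fold). Of the 100 members listed, 96 passed the filter on low counts (edgeR's filterByExpr). Of these, 58 were higher in PCC, 28 were lower and 10 did not pass an adjusted *p* of 0.05 (edgeR's quasi-likelihood test, Benjamini-Hochberg adjustment over the genes the authors had tested). That is 89.6% called, 60.4% higher and 29.2% lower, where of all 7001 genes tested here 85.2% were called, 46.7% higher and 38.5% lower. These shares of all genes also stand beside each count by role below. The median log2 fold change was 0.89 over members and 0.44 over all genes tested. In 70 of the 96 members the PCC and WT values did not overlap, which also held for 65.7% of all genes tested. Without WT5, 53 members were higher and 23 lower of 97 tested. With the summed listed counts as library size in place of TMM (edgeR's trimmed mean scaling) the split was 63 higher to 15 lower, while the median of all genes moved up by 0.50 log2. Of the genes given below sample by sample, *Adcy5*, *Adcy9*, *Creb3*, *Crtc3*, *Gnai3*, *Gucy1a2* and *Pde8b* were then no longer called, and with the recovered library totals *Adcy5*, *Adcy9*, *Crtc3* and *Pde8b* were not. The call held in each of 10 fits that left out 1 rat for 66 of the 86 members.

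**Figure D2:**
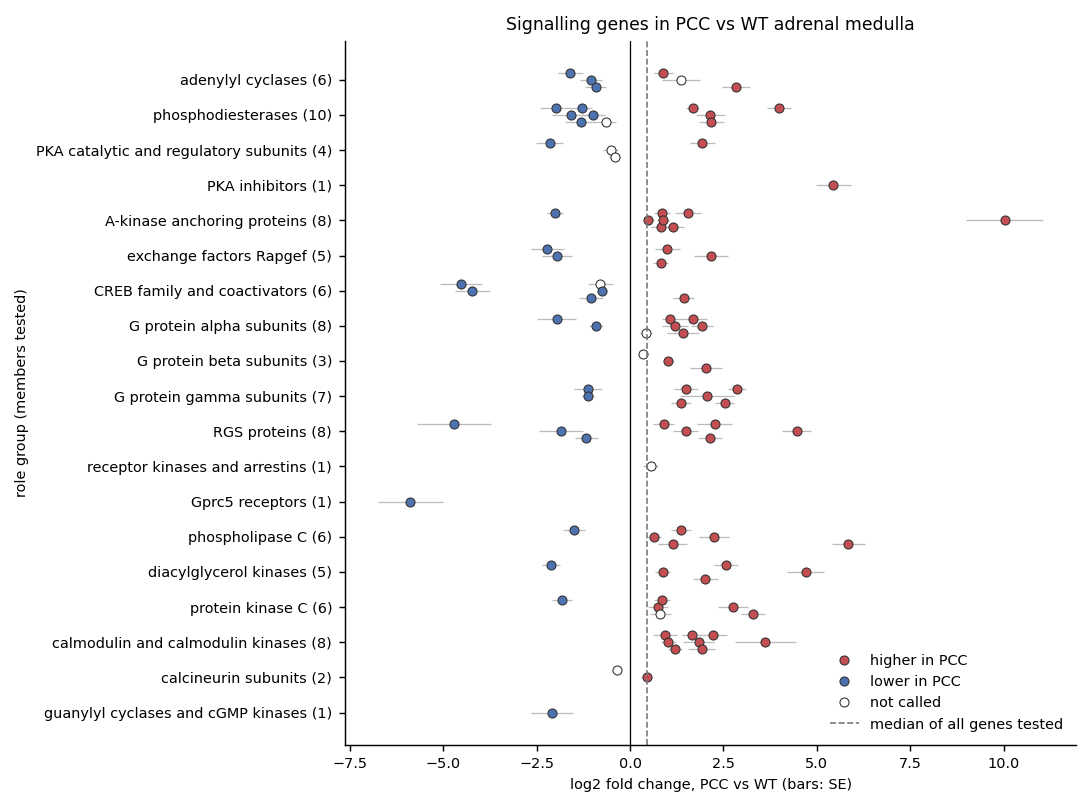
Log2 fold change of PCC vs. WT with its SE for the 96 members tested, by role (rows, number tested in brackets). Red points are higher in PCC, blue lower, white not called; the dashed line is the median of all genes tested, 0.44. In the CREB family row 4 of 6 genes are blue, and most other rows hold both colours. The point at the far right is *Sphkap*, whose fitted value is no bound since its WT rats had 1 read in all.

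A cAMP response element, the site that CREB family factors bind, was looked for in the RefSeq promoters (GRCr8, 250 bases before to 50 after the gene start) that 89 of the 113 symbols matched. The full element TGACGTCA, which reads the same on both strands, was in 1 of the 89 (1.12%) and in 2.22% of the 19005 promoters of protein coding genes (1.91% of all 27457 promoters). Its core, TGACG or CGTCA, which the full element also contains, was in 26 (29.2%), in 24.2% of protein coding promoters and in 22.0% of all. A match of letters is a description and no binding site. The promoters below are of *Gnao1*, the member with the full element, and of 3 members with the core and wide changes in level, *Crem* and *Rgs2*, which fell, and *Rgs4*, which rose. Capitals mark the full element in *Gnao1*, 121 bases before the start, and the core in the others. Each is read 5′ to 3′ on the gene's strand.
Gnao1 chr19:11198388-11198687, - strand: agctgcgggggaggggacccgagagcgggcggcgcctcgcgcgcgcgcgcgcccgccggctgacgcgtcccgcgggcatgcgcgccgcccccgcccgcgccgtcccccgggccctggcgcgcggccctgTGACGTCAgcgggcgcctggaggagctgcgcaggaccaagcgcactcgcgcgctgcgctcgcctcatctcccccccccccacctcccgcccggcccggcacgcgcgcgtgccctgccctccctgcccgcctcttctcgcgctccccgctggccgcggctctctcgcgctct
Crem chr17:58933816-58934115, + strand: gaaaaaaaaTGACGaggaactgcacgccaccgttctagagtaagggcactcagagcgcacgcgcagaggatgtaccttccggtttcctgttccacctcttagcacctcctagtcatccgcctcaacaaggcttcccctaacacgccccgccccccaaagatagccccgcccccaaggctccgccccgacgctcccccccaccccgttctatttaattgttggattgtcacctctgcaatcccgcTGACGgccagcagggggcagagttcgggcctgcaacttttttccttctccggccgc
Rgs2 chr13:58352617-58352916, - strand: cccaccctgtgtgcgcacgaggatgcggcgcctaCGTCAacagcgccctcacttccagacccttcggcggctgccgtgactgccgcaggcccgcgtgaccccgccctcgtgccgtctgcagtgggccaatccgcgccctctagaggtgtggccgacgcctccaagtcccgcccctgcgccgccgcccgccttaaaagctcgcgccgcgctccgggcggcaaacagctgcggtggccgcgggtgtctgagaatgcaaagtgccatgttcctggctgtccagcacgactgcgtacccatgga
Rgs4 chr13:84475835-84476134, - strand: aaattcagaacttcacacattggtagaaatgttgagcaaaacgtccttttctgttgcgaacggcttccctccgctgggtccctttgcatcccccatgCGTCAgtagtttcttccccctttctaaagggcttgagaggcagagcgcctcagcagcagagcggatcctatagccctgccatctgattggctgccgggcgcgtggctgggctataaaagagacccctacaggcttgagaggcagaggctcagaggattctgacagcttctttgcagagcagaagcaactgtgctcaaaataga

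Among the 6 adenylyl cyclases, which make cyclic AMP, 2 rose and 3 fell in PCC vs. WT. *Adcy1*, a cyclase that calmodulin stimulates, was at 3.34, 6.40, 6.13, 3.57 and 4.55 CPM in WT, 6.60, 27.4, 15.1, 26.5 and 46.2 in HYP and 14.3, 31.2, 55.5, 48.6 and 25.0 in PCC rats. All HYP and PCC rats lay above all WT rats, and it rose 7.12-fold in PCC (log2 fold change 2.83 ± 0.38 SE, adjusted *p* = 0.000401). *Adcy3*, a cyclase best known from olfactory neurons, was at 13.4, 11.6, 11.8, 10.3 and 8.21 CPM in WT, 11.97, 13.9, 9.33, 13.7 and 15.7 in HYP and 15.5, 29.1, 22.3, 24.7 and 13.5 in PCC rats, and rose 1.85-fold in PCC without overlap (log2 fold change 0.89 ± 0.25 SE, adjusted *p* = 0.0166). *Adcy10*, the soluble cyclase that bicarbonate stimulates, was at 5.67, 4.49, 6.45, 7.33 and 6.92 CPM in WT, 4.38, 4.14, 5.89, 4.78 and 3.76 in HYP and 1.61, 3.25, 1.70, 0.916 and 2.86 in PCC rats. It fell in PCC (log2 fold change -1.60 ± 0.34 SE, adjusted *p* = 0.00458), with every PCC rat below every WT and HYP rat. *Adcy5*, a cyclase that calcium inhibits, was at 56.1, 66.3, 48.3, 45.7 and 32.1 CPM in WT, 41.0, 41.6, 36.5, 55.4 and 64.1 in HYP and 23.7, 24.4, 30.4, 14.3 and 41.6 in PCC rats, with 4 of 5 PCC rats below the WT range (log2 fold change -0.92 ± 0.29 SE, adjusted *p* = 0.0286). *Adcy9*, a cyclase expressed in many tissues, was at 56.0, 52.6, 82.2, 34.8 and 95.8 CPM in WT, 29.7, 64.8, 65.5, 58.7 and 58.9 in HYP and 34.9, 22.2, 49.2, 21.1 and 31.1 in PCC rats, with 3 of 5 PCC rats below the WT range (log2 fold change -1.04 ± 0.30 SE, adjusted *p* = 0.0205). The call of *Adcy5* was lost without PCC2, WT1 or WT2 (adjusted *p* = 0.0571 to 0.0673) and that of *Adcy9* without PCC2 or WT3 (adjusted *p* = 0.0508 to 0.0546). *Adcy8*, also stimulated by calmodulin, was at 0.76, 0.98, 0.74, 1.47 and 0.747 CPM in WT, 1.17, 1.22, 0.439, 0.281 and 0.878 in HYP and 1.15, 1.22, 5.70, 2.99 and 1.20 in PCC rats and did not pass (log2 fold change 1.35 ± 0.51 SE, adjusted *p* = 0.0642), with PCC3 and PCC4 above the WT range. Per length, *Adcy9* made up 48.6% ± 12.6 (SD, n = 5) of the summed FPKM of the 6 cyclases in WT and 26.9% ± 8.46 in PCC, and *Adcy1* 4.64% ± 1.04 and 35.4% ± 12.2.

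Of the phosphodiesterases, which hydrolyse cyclic nucleotides, 16 were members, 12 were listed for PCC vs. WT, 10 were tested, and 4 rose and 5 fell. *Pde3a*, a cyclic AMP hydrolase that cyclic GMP inhibits, was at 8.26, 11.2, 6.77, 9.69 and 5.43 CPM in WT, 21.2, 61.5, 33.1, 49.5 and 61.7 in HYP and 114, 115, 198, 177 and 70.9 in PCC rats. The groups did not overlap in any pair, and it rose 15.9-fold in PCC (log2 fold change 3.99 ± 0.33 SE, adjusted *p* = 7.76e-05). *Pde4b*, specific for cyclic AMP, was at 2.58, 3.15, 1.74, 3.13 and 1.43 CPM in WT, 4.81, 5.91, 2.69, 3.43 and 3.95 in HYP and 10.1, 11.8, 18.2, 8.44 and 7.26 in PCC rats, with all PCC rats above the others (log2 fold change 2.17 ± 0.34 SE, adjusted *p* = 0.000819). The other 2 that rose were *Pde3b* (log2 fold change 2.15, adjusted *p* = 0.00191) and *Pde4dip* (1.67, adjusted *p* = 0.000125), whose product is not an enzyme but a scaffold at the Golgi and centrosome. *Pde8a*, of high affinity for cyclic AMP, was at 75.2, 96.4, 124, 158 and 181 CPM in WT, 61.7, 70.1, 124, 99.8 and 80.9 in HYP and 68.1, 32.7, 64.5, 43.6 and 55.7 in PCC rats, with no overlap of PCC and WT (log2 fold change -1.28 ± 0.27 SE, adjusted *p* = 0.00371). *Pde8b*, its relative known for limiting steroid synthesis in the cortex, was at 23.0, 24.6, 38.4, 26.9 and 48.8 CPM in WT, 22.7, 31.2, 38.2, 29.3 and 23.7 in HYP and 17.7, 5.70, 14.7, 1.74 and 14.5 in PCC rats, and fell in PCC (log2 fold change -1.59 ± 0.50 SE, adjusted *p* = 0.0299). PCC rats lay below the WT and HYP range for *Pde8b*, with PCC4 lowest, but the call was lost without PCC2, WT3 or WT5 (adjusted *p* = 0.0603 to 0.0716). *Pde1a*, which calmodulin activates, *Pde2a*, which cyclic GMP activates, and *Pde5a*, specific for cyclic GMP, fell with overlap of the groups (log2 fold change -1.98, -1.32 and -0.999). The call of *Pde2a* was lost without PCC1, PCC2, PCC3, PCC4, WT1, WT2, WT4 or WT5 (adjusted *p* = 0.052 to 0.0866), while without PCC5 its log2 fold change was -2.01, adjusted *p* = 0.000147. That of *Pde5a* was lost without PCC1, PCC2, PCC4, WT3, WT4 or WT5 (adjusted *p* = 0.0538 to 0.0961). Without WT5 only *Pde8a* and *Pde1a* were called lower. Per length, *Pde8a* made up 46.2% ± 7.87 of the summed FPKM of the 9 genes of this group with values in all rats, *Pde4dip* included (4.17% ± 0.924 in WT and 13.5% ± 3.96 in PCC), in WT and 19.7% ± 4.68 in PCC, and *Pde3a* 2.42% ± 0.896 and 36.8% ± 9.96. *Pde12*, which degrades RNA and not cyclic nucleotides, did not pass (log2 fold change -0.64, adjusted *p* = 0.0871), and *Pde1c* and *Pde6c* were too low to test.

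The PKA regulatory subunits, which hold the kinase inactive, went apart. *Prkar2b*, of type II, was at 261, 256, 353, 341 and 365 CPM in WT, 194, 256, 332, 218 and 201 in HYP and 111, 40.8, 84.2, 26.2 and 100.5 in PCC rats. Every PCC rat lay below every other rat, and *Prkar2b* fell 4.43-fold in PCC vs. WT (log2 fold change -2.15 ± 0.36 SE, adjusted *p* = 0.00123). *Prkar1b*, of type I and best known from neurons, was at 10.2, 16.2, 9.99, 8.93 and 3.46 CPM in WT, 19.8, 22.4, 14.3, 22.3 and 28.4 in HYP and 33.2, 42.3, 39.0, 46.7 and 30.6 in PCC rats, and rose 3.81-fold with no PCC rat in the WT or HYP range (log2 fold change 1.93 ± 0.34 SE, adjusted *p* = 0.00148). Of the summed FPKM of these 2 subunits *Prkar2b* made up 94.8% ± 2.95 in WT, 86.4% ± 4.49 in HYP and 50.1% ± 18.6 in PCC. *Prkar1a*, the widely expressed type I subunit, was at 409.8, 471, 653, 667 and 717 CPM in WT and 470.3, 369.6, 395, 451 and 379 in PCC rats and did not pass (log2 fold change -0.52 ± 0.19 SE, adjusted *p* = 0.0591). *Prkaca*, the catalytic subunit, was at 162, 140.1, 164, 122.8 and 162 CPM in WT and 95.9, 113, 114, 113 and 139 in PCC rats, with 4 of 5 PCC rats below the WT range, and did not pass either (log2 fold change -0.41 ± 0.15 SE, adjusted *p* = 0.0533). At 363 ± 70.0 FPKM in WT and 311 ± 25.2 FPKM in PCC, *Prkar1a* had the highest level per length of the 4 subunits listed. HYP values of *Prkaca* and *Prkar1a* were not analysed here, since neither gene was listed for a comparison with HYP.

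*Pkib* (ENSRNOG00000000811, Rn06 chr20:40618128-40712592, + strand) encodes a peptide inhibitor of the PKA catalytic subunit. It was at 1.87, 3.20, 1.53, 2.74 and 2.51 CPM in WT, 10.7, 9.28, 9.15, 7.25 and 7.22 in HYP and 143, 50.1, 98.3, 194 and 44.1 in PCC rats. The 3 groups did not overlap in any pair, and the lowest PCC rat was above the highest HYP rat. It rose 43.6-fold in PCC vs. WT (log2 fold change 5.45 ± 0.47 SE, adjusted *p* = 8.75e-05), the largest rise of any member whose level in WT was above the floor of 3 counts after *Plch2*. Per length the level went from 1.52 ± 0.441 FPKM in WT to 80.7 ± 48.2 FPKM in PCC.

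A-kinase anchoring proteins tether PKA to places in the cell. Of 8 tested, 7 rose and 1 fell in PCC vs. WT, beside 46.7% higher and 38.5% lower of all genes tested. *Sphkap* (Rn06 chr9:89050381-89195273, - strand), whose product binds type I regulatory subunits, was at 0, 0, 0, 0.0638 and 0 CPM in WT, 0.247, 0.939, 0.626, 0.112 and 1.02 in HYP and 21.5, 7.02, 30.5, 32.5 and 2.86 in PCC rats. A single read was counted in WT4 and none in the other WT rats, so WT was set to a floor of 3 counts per library. Against this floor the mean of *Sphkap* was at least 109.8-fold higher in PCC and at least 3.43-fold higher in HYP. The HYP bound is one of the mean only: HYP4, at 0.112 CPM, lay under the floor. *Sphkap* was too low to test in HYP vs. WT. *Akap6*, an anchor at the nuclear envelope, was at 19.0, 30.3, 22.9, 16.2 and 6.92 CPM in WT, 28.8, 80.2, 55.3, 55.1 and 78.2 in HYP and 49.98, 73.3, 77.0, 44.1 and 41.7 in PCC rats, and rose in PCC without overlap (log2 fold change 1.54 ± 0.35 SE, adjusted *p* = 0.00622). *Akap2* was the member that fell, from 58.5, 68.8, 86.3, 65.8 and 74.4 CPM in WT and 22.3, 57.6, 72.4, 44.3 and 37.4 in HYP to 16.8, 13.1, 27.0, 13.1 and 19.5 in PCC (log2 fold change -2.01 ± 0.22 SE, adjusted *p* = 0.000155). All PCC rats were below all WT rats. *Akap5*, *Akap8*, *Akap11*, *Akap13* and *Akap17b* rose by log2 fold changes of 1.15, 0.48, 0.89, 0.86 and 0.82. Without WT5, *Akap8* and *Akap17b* were no longer called, leaving 5 higher.

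The exchange factors Epac1 and Epac2, which cyclic AMP opens independently of PKA, both fell. *Rapgef3* (Epac1) was at 218, 182, 159, 99.6 and 109 CPM in WT, 100.1, 89.7, 57.5, 82.1 and 65.7 in HYP and 39.8, 20.5, 54.2, 16.7 and 69.7 in PCC rats, and *Rapgef4* (Epac2) at 91.4, 109, 103, 148 and 128 CPM in WT, 50.6, 63.4, 102, 70.3 and 51.1 in HYP and 56.3, 14.4, 20.8, 7.42 and 29.0 in PCC rats. PCC and WT rats overlapped for neither, with *Rapgef3* 3.91-fold lower (log2 fold change -1.97 ± 0.40 SE, adjusted *p* = 0.00347) and *Rapgef4* 4.64-fold lower (log2 fold change -2.21 ± 0.44 SE, adjusted *p* = 0.00296). Of the 3 others, *Rapgefl1* rose from 0.709, 0.361, 0.793, 0.893 and 0.475 CPM in WT and 1.11, 0.884, 0.626, 0.618 and 0.927 in HYP to 1.80, 2.49, 2.57, 6.46 and 1.62 in PCC (log2 fold change 2.17 ± 0.45 SE, adjusted *p* = 0.00393). *Rapgef6*, an activator of Rap that cyclic AMP does not open, was at 25.9, 24.8, 30.0, 24.3 and 21.8 CPM in WT, 28.7, 57.4, 45.1, 38.4 and 46.6 in HYP and 35.9, 65.5, 49.8, 42.4 and 34.4 in PCC rats and rose too (log2 fold change 0.82 ± 0.20 SE, adjusted *p* = 0.00852). For both the PCC rats lay above the WT rats. *Rapgef5* was also higher (log2 fold change 1.00), a call lost without PCC2, PCC3, PCC5, WT1, WT3, WT4 or WT5 (adjusted *p* = 0.0626 to 0.101).

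In the CREB family 4 of 6 genes fell and 1 rose, beside 38.5% lower and 46.7% higher of all genes tested. *Crem* (ENSRNOG00000014900, Rn06 chr17:57031766-57090888, + strand) encodes activators and the inducible repressor ICER, which act at cAMP response elements; the gene-level count does not tell its transcripts apart. It was at 1921, 2071, 1200.3, 1317 and 561 CPM in WT, 325, 336, 549, 273 and 249 in HYP and 80.7, 45.4, 51.2, 60.6 and 149 in PCC rats. The 3 groups followed each other with no overlap, and *Crem* fell 18.7-fold in PCC vs. WT (log2 fold change -4.23 ± 0.47 SE, adjusted *p* = 0.000159). WT5, with the lowest chromaffin marker level, was also the lowest WT rat for *Crem*, and without it the call held with 4 CREB family genes lower. Per length *Crem* made up 76.1% ± 11.7 of the summed FPKM of the 5 family members with values in all rats in WT, 66.6% ± 5.06 in HYP and 33.8% ± 10.8 in PCC. *Creb3l1*, a factor held in the membrane of the endoplasmic reticulum and known for its role in secretion and collagen synthesis, was at 172, 286, 383, 691 and 267 CPM in WT, 63.4, 22.7, 106, 50.6 and 37.9 in HYP and 13.7, 7.48, 9.33, 10.1 and 38.5 in PCC rats, and fell 23.1-fold (log2 fold change -4.53 ± 0.56 SE, adjusted *p* = 0.000282). PCC5 was well above the other PCC rats, and without it the log2 fold change was -5.17, adjusted *p* = 9.11e-05. *Creb3*, also anchored in that membrane, was at 98.6, 94.8, 104, 116 and 126 CPM in WT, 87.1, 69.8, 83.6, 80.7 and 74.1 in HYP and 68.3, 64.0, 60.6, 68.6 and 67.3 in PCC rats, a small difference with all groups apart (log2 fold change -0.74 ± 0.12 SE, adjusted *p* = 0.00107). *Creb3l2*, the close relative of *Creb3l1*, moved the other way, at 20.3, 32.6, 38.9, 28.9 and 56.1 CPM in WT, 28.7, 80.0, 64.1, 67.0 and 81.9 in HYP and 114, 75.2, 122, 116 and 57.1 in PCC rats, and rose 2.70-fold (log2 fold change 1.43 ± 0.28 SE, adjusted *p* = 0.00292). No PCC rat was in the WT range. *Crtc3*, a coactivator of CREB, was at 47.0, 30.1, 27.8, 12.1 and 20.4 CPM in WT and 11.5, 11.8, 17.1, 16.6 and 11.7 in PCC rats with overlap (log2 fold change -1.04 ± 0.32 SE, adjusted *p* = 0.0285), a call lost without PCC2, PCC5, WT1, WT2 or WT3 (adjusted *p* = 0.0521 to 0.0715). *Creb5* was at 2.68, 2.12, 1.32, 1.66 and 1.56 CPM in WT, 0.617, 1.05, 1.32, 1.29 and 0.78 in HYP and 0.784, 1.78, 1.24, 0.819 and 0.897 in PCC rats and did not pass (log2 fold change -0.79 ± 0.34 SE, adjusted *p* = 0.103).

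**Figure D3:**
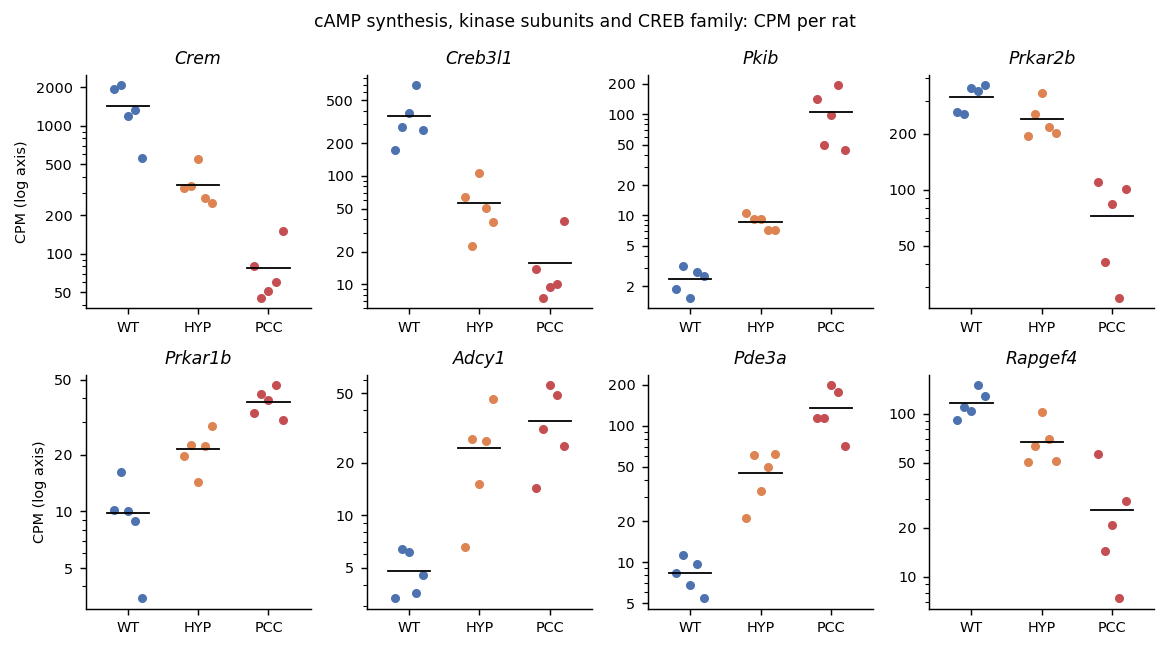
CPM of 8 members of the cyclic AMP arm in each rat (points; bar, group mean; log axis in each panel with its own range). *Crem*, *Creb3l1*, *Prkar2b* and *Rapgef4* have their lowest group mean in PCC, and *Pkib*, *Prkar1b*, *Adcy1* and *Pde3a* their highest.

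Of 8 rows of G protein alpha subunits 5 rose and 2 fell. *Gnai1*, which inhibits cyclases, was at 2.03, 4.28, 3.97, 5.29 and 4.28 CPM in WT, 7.09, 11.4, 9.59, 9.61 and 12.4 in HYP and 16.3, 19.98, 18.3, 12.5 and 9.61 in PCC rats, and *Gnao1*, the alpha subunit abundant in neurons and endocrine cells and the member with the full cAMP response element, at 34.9, 44.3, 33.7, 30.4 and 9.503 CPM in WT, 66.0, 86.8, 63.2, 70.8 and 86.8 in HYP and 115, 160.5, 96.6, 62.6 and 69.1 in PCC rats. For both, HYP and PCC rats lay above all WT rats, and both rose in PCC (*Gnai1* log2 fold change 1.92 ± 0.30 SE, adjusted *p* = 0.000771; *Gnao1* log2 fold change 1.68 ± 0.39 SE, adjusted *p* = 0.00645). WT5 had the lowest *Gnao1* level of all rats. *Gnai3*, also inhibitory, fell, at 221, 262, 273, 308 and 276 CPM in WT and 206, 123.3, 142, 115 and 141 in PCC rats (log2 fold change -0.91 ± 0.18 SE, adjusted *p* = 0.00311), with no overlap. *Gnaq*, which activates phospholipase C, rose (log2 fold change 1.08, adjusted *p* = 0.00412). *Gnat2*, the transducin of cone photoreceptors, was the other that fell (-1.97, adjusted *p* = 0.0141), with overlap. *Gnai2* did not pass (0.42, adjusted *p* = 0.0727), although all PCC rats lay above all WT rats. *Gnas*, which encodes Gs alpha, stands in the tables as 2 overlapping rows on chromosome 3 (172374957 to 172428483 and 172385672 to 172434613), among which reads can be split, so neither is certain. Both were higher in PCC, by 1.42 (adjusted *p* = 0.0280) and 1.20 (adjusted *p* = 0.0210) on the log2 scale, and both calls were lost without WT3 and that of the first also without PCC1 or WT4.

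Of 10 tested genes of beta and gamma subunits, which stay joined when the alpha subunit leaves, 7 rose, beside 46.7% of all genes tested. *Gnb3* was at 44.1, 50.6, 27.8, 25.1 and 8.28 CPM in WT, 94.8, 62.7, 44.6, 68.2 and 74.7 in HYP and 83.7, 145, 116, 188 and 125 in PCC rats, and *Gnb5*, a beta subunit that pairs with RGS proteins of the *Rgs7* and *Rgs9* kind, at 24.6, 27.3, 30.3, 31.1 and 28.6 CPM in WT, 36.5, 40.5, 29.0, 34.7 and 38.5 in HYP and 59.5, 68.5, 57.8, 61.7 and 46.8 in PCC rats. Neither overlapped between PCC and WT, and both rose (*Gnb3* log2 fold change 2.03 ± 0.42 SE, adjusted *p* = 0.00359; *Gnb5* log2 fold change 1.02 ± 0.14 SE, adjusted *p* = 0.000459). *Gnb1* did not pass (0.36, adjusted *p* = 0.0607). Of 7 gamma subunits 5 rose and 2 fell. *Gng3*, a neuronal gamma subunit, was at 17.5, 17.5, 13.7, 14.9 and 11.5 CPM in WT, 52.0, 52.6, 39.5, 49.3 and 49.3 in HYP and 136, 153, 95.1, 108 and 66.0 in PCC rats, and *Gng2* at 17.3, 21.7, 13.5, 15.0 and 16.6 CPM in WT, 31.3, 51.6, 35.3, 28.6 and 34.4 in HYP and 161, 85.0, 94.6, 98.1 and 60.7 in PCC rats. Both separated all 3 groups in the order WT, HYP, PCC, with *Gng3* 7.23-fold higher in PCC (log2 fold change 2.85 ± 0.24 SE, adjusted *p* = 8.08e-05) and *Gng2* 5.79-fold (log2 fold change 2.53 ± 0.25 SE, adjusted *p* = 0.000109). *Gng5*, a widely expressed gamma subunit, went the other way, at 71.9, 71.7, 74.4, 93.6 and 91.8 CPM in WT, 70.6, 55.8, 83.9, 52.5 and 51.7 in HYP and 49.4, 30.5, 35.7, 36.4 and 36.7 in PCC rats (log2 fold change -1.12 ± 0.16 SE, adjusted *p* = 0.000484), and no PCC rat reached the WT or HYP range. *Gng4*, *Gng8* and *Gng10* were higher and *Gng12* lower (log2 fold change 2.06, 1.497, 1.36 and -1.14). The call of *Gng12* was lost without PCC2, PCC3, PCC4, PCC5, WT3, WT4 or WT5 (adjusted *p* = 0.0571 to 0.0893). That of *Gng4* was lost without PCC2, PCC3, PCC4, WT1, WT2, WT3, WT4 or WT5 (adjusted *p* = 0.0515 to 0.159), with a log2 fold change of 1.34, adjusted *p* = 0.159 without PCC4.

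The RGS genes, whose products end G protein signals, gave 2 of the widest changes in opposite directions. *Rgs4* (Rn06 chr13:88054817-88061108, - strand), which acts on Gi and Gq alpha, was at 82.4, 108, 67.4, 89.0 and 69.6 CPM in WT, 329, 410.4, 282, 299 and 369 in HYP and 1765, 1227, 1675, 3712 and 1013 in PCC rats. All 3 groups were apart, PCC4 stood highest, and *Rgs4* rose 22.0-fold (log2 fold change 4.46 ± 0.39 SE, adjusted *p* = 9.62e-05). *Rgs2* (Rn06 chr13:60846308-60849094, - strand), which prefers Gq alpha and is known to be induced by cyclic AMP, was at 849.7, 682, 255, 75.7 and 57.9 CPM in WT, 41.5, 97.1, 29.7, 11.1 and 10.4 in HYP and 4.61, 4.42, 7.63, 10.5 and 48.2 in PCC rats. WT rats were widely spread, every PCC rat was below every WT rat, and *Rgs2* fell 26.2-fold (log2 fold change -4.71 ± 1.00 SE, adjusted *p* = 0.00415). PCC5 was the highest PCC rat, and without it the log2 fold change was -5.86, adjusted *p* = 0.00118. Per length, *Rgs2* made up 78.9% ± 16.7 of the summed FPKM of the 9 RGS members with values in all rats in WT and 3.18% ± 4.87 in PCC, and *Rgs4* 11.4% ± 9.37 and 85.7% ± 8.04. These shares leave out *Rgs5*, which is no member by the naming rule. It was at 23.6 ± 4.59 CPM in WT and 1102 ± 687 CPM in PCC, so they are not shares of all RGS genes. *Rgs9*, known from retina and striatum, was at 17.8, 19.6, 13.3, 12.2 and 2.51 CPM in WT, 42.4, 44.9, 29.3, 31.7 and 41.7 in HYP and 54.2, 111, 56.1, 49.8 and 52.7 in PCC rats, with HYP and PCC rats above WT rats and PCC2 highest (log2 fold change 2.26 ± 0.46 SE, adjusted *p* = 0.00333). *Rgs3*, *Rgs7* and *Rgs17* also rose (log2 fold change 1.49, 0.90 and 2.14), and *Rgs6* and *Rgs10* fell (-1.86 and -1.17), with the call of *Rgs6* lost without PCC2, PCC3, PCC4, WT4 or WT5 (adjusted *p* = 0.0526 to 0.0731) and its log2 fold change -2.76, adjusted *p* = 0.000888 without PCC5. That of *Rgs7* was lost without PCC1, PCC2, WT1, WT3 or WT4 (adjusted *p* = 0.0631 to 0.0796). *Rgs8* was too low to test.

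*Gprc5b* (Rn06 chr1:188688743-188713280, - strand) encodes an orphan receptor of the class C family, from a set named for its induction by retinoic acid. It was at 336, 644, 213, 291 and 11.2 CPM in WT, 11.9, 19.2, 44.2, 29.3 and 24.0 in HYP and 1.94, 4.98, 6.53, 6.31 and 6.32 in PCC rats, and fell 59.1-fold (log2 fold change -5.88 ± 0.86 SE, adjusted *p* = 0.000611). WT5 lay far below the other 4 WT rats and in the range of the HYP rats, but above every PCC rat. *Arrb2*, one of the arrestins that uncouple receptors, did not pass (0.55, adjusted *p* = 0.0567), and *Arrb1* was higher in HYP than in WT (0.67, adjusted *p* = 0.0257), a call lost without HYP2, HYP5, WT3 or WT4 (adjusted *p* = 0.0557 to 0.0766).

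Of 6 phospholipase C genes 5 rose and 1 fell, beside 46.7% higher and 38.5% lower of all genes tested. *Plch2* (Rn06 chr5:172388598-172424081, - strand), an eta isoform known from neurons, was at 1.37, 2.27, 1.37, 1.59 and 1.15 CPM in WT, 38.7, 67.6, 27.6, 28.4 and 47.0 in HYP and 34.2, 111, 80.3, 168 and 66.2 in PCC rats. HYP and PCC rats were all far above the WT rats and overlapped each other, and *Plch2* rose 57.3-fold (log2 fold change 5.84 ± 0.45 SE, adjusted *p* = 6.29e-05). *Plcd4*, a delta isoform, was at 9.52, 8.88, 4.97, 3.83 and 2.78 CPM in WT, 19.0, 18.0, 12.2, 10.5 and 11.4 in HYP and 26.0, 25.0, 20.9, 52.6 and 22.4 in PCC rats and rose (log2 fold change 2.25 ± 0.40 SE, adjusted *p* = 0.00162), with the 3 groups apart and PCC4 highest. *Plcb1*, which Gq alpha activates, fell, at 48.2, 50.4, 79.0, 87.1 and 135 CPM in WT, 28.4, 74.7, 72.6, 50.2 and 47.8 in HYP and 28.8, 16.7, 32.3, 31.2 and 33.3 in PCC rats (log2 fold change -1.51 ± 0.29 SE, adjusted *p* = 0.00257). PCC and WT did not overlap. *Plcb4*, also activated by Gq alpha, was higher (log2 fold change 1.36, adjusted *p* = 0.00269), as were *Plcd1* (0.63) and *Plce1* (1.14), whose calls were lost without PCC2, PCC4, WT3, WT4 or WT5 (adjusted *p* = 0.0556 to 0.0744) and without PCC1, PCC2, PCC3, WT1, WT2, WT4 or WT5 (adjusted *p* = 0.067 to 0.137).

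Diacylglycerol kinases turn diacylglycerol into phosphatidic acid and so end its signal. *Dgkh* was at 5.57, 6.14, 6.71, 13.8 and 10.1 CPM in WT, 28.9, 115, 55.3, 65.1 and 94.2 in HYP and 96.7, 174, 348, 401 and 96.5 in PCC rats, and *Dgki* at 3.50, 5.47, 4.60, 2.81 and 2.04 CPM in WT, 6.48, 19.9, 13.2, 13.9 and 20.6 in HYP and 17.2, 22.2, 30.3, 26.4 and 16.5 in PCC rats. HYP and PCC rats lay above WT rats for both, *Dgkh* rose 26.0-fold (log2 fold change 4.70 ± 0.50 SE, adjusted *p* = 0.000134) and *Dgki* 5.93-fold (log2 fold change 2.57 ± 0.31 SE, adjusted *p* = 0.000256). *Dgka*, which calcium activates, fell, at 247, 214, 182, 207 and 182 CPM in WT, 133, 92.5, 156, 112 and 87.8 in HYP and 76.2, 34.1, 51.1, 29.5 and 52.7 in PCC rats (log2 fold change -2.12 ± 0.25 SE, adjusted *p* = 0.000227). The groups followed each other downward with no overlap. *Dgkz* and *Dgke* were higher too (log2 fold change 2.01 and 0.87).

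The protein kinase C genes tested went in both directions. *Prkca*, which needs both calcium and diacylglycerol, was at 13.1, 16.7, 13.5, 13.3 and 5.36 CPM in WT, 39.5, 120.3, 63.6, 55.2 and 80.1 in HYP and 126, 115, 138, 168 and 77.6 in PCC rats and rose 9.81-fold (log2 fold change 3.29 ± 0.32 SE, adjusted *p* = 9.87e-05). *Prkcb*, of the same class, was at 5.22, 5.26, 4.18, 6.70 and 3.05 CPM in WT, 5.74, 8.67, 5.39, 6.58 and 7.46 in HYP and 25.1, 38.4, 29.9, 63.6 and 11.9 in PCC rats and rose 6.74-fold (log2 fold change 2.75 ± 0.41 SE, adjusted *p* = 0.000628). In *Prkca* HYP rats had already left the WT range, while in *Prkcb* 3 of 5 HYP rats lay within it. *Prkcd*, which does not need calcium, fell, at 106, 95.9, 113, 176 and 172 CPM in WT, 77.1, 49.2, 102, 72.5 and 60.9 in HYP and 41.9, 28.3, 37.4, 24.4 and 59.4 in PCC rats (log2 fold change -1.81 ± 0.27 SE, adjusted *p* = 0.000651). Of the summed FPKM of these 3 genes *Prkcd* made up 90.0% ± 4.16 in WT, 57.3% ± 14.5 in HYP and 25.8% ± 13.6 in PCC rats, and *Prkca* 6.06% ± 2.93, 36.6% ± 13.6 and 51.1% ± 5.81. *Prkce* and *Prkcz*, without HYP values here, and isoforms the authors had not called are not in this sum, so it does not describe the whole family. *Prkce* and *Prkcz* were higher (log2 fold change 0.85 and 0.76, the call of *Prkcz* lost in 7 of 10 fits that left out 1 rat), and *Prkcdbp*, whose product is no kinase but a caveolar protein that binds *Prkcd*, did not pass (0.81, adjusted *p* = 0.0529).

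The calmodulin kinase and kinase inhibitor genes given here, 7 with a test, were all higher in PCC, where 46.7% of all genes tested were higher and 85.2% called. *Camk2a*, the calcium/calmodulin kinase II subunit best known from the brain, was at 0.152, 0.671, 0.106, 0.51 and 0.0679 CPM in WT, 0.864, 0.773, 0.501, 0.787 and 0.537 in HYP and 1.38, 5.54, 2.25, 9.54 and 0.769 in PCC rats, and rose 12.2-fold from a low level (log2 fold change 3.61 ± 0.82 SE, adjusted *p* = 0.00581). PCC2 and PCC4 were highest, and without PCC4 the log2 fold change was 2.97, adjusted *p* = 0.0116. *Camk2n1*, which encodes an inhibitor of that kinase, was at 17.1, 17.5, 14.5, 13.1 and 7.40 CPM in WT, 19.5, 22.9, 19.3, 20.1 and 19.8 in HYP and 75.0, 56.7, 49.98, 121 and 31.7 in PCC rats, and rose 4.67-fold (log2 fold change 2.22 ± 0.36 SE, adjusted *p* = 0.00101), the 3 groups being apart. *Camk1*, *Camk1d*, *Camk2b*, *Camk2g* and *Camkk2*, a kinase that activates the *Camk1* products, rose by 1.03, 1.84, 0.93, 1.66 and 1.91 on the log2 scale, where *Camk2b* (adjusted *p* = 0.0474) lost its call without PCC1, PCC2, PCC3, PCC5, WT1, WT3 or WT4 (adjusted *p* = 0.0636 to 0.111). *Camk1g* was too low in WT to test and at least 8.91-fold higher in PCC against the floor of 3 counts. *Ppp3cb*, a catalytic subunit of calcineurin, the calmodulin-dependent phosphatase, was at 48.9, 52.9, 56.8, 53.2 and 56.9 CPM in WT and 99.4, 74.4, 64.9, 67.2 and 67.4 in PCC rats (log2 fold change 0.44 ± 0.14 SE, adjusted *p* = 0.0343), a call lost without PCC1, PCC2, WT1, WT2, WT3 or WT4 (adjusted *p* = 0.0583 to 0.14), and *Ppp3r1*, its regulatory subunit, did not pass (-0.36, adjusted *p* = 0.0682).

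*Gucy1a2*, a subunit of the guanylyl cyclase that nitric oxide activates, was at 1.92, 3.15, 2.80, 1.72 and 6.92 CPM in WT, 1.30, 3.15, 2.57, 3.82 and 3.76 in HYP and 0.83, 0.814, 1.66, 0.193 and 0.385 in PCC rats, and fell in PCC without overlap with WT (log2 fold change -2.10 ± 0.56 SE, adjusted *p* = 0.014). Its relative *Gucy1a3* was listed only for the comparisons with HYP, at 91.6, 92.1, 71.7, 57.1 and 22.3 CPM in WT, 97.2, 145, 124, 119 and 146 in HYP and 74.2, 53.9, 49.2, 17.0 and 62.6 in PCC rats. HYP rats were the highest group for *Gucy1a3*.

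**Figure D4:**
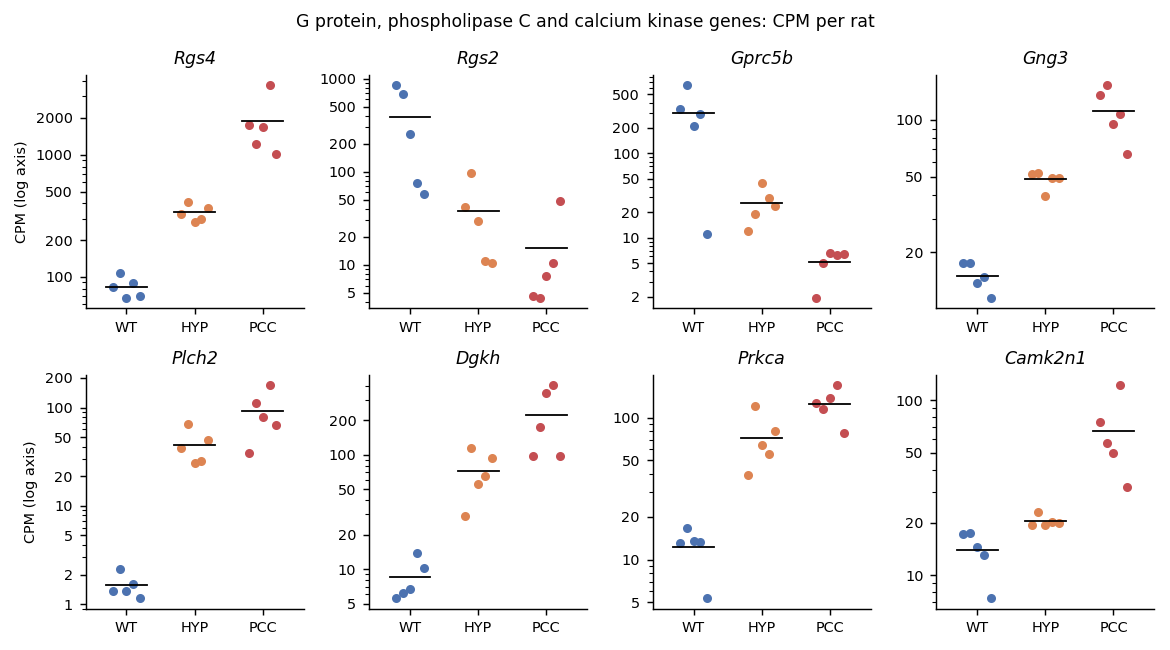
CPM of 8 members of the G protein, phospholipase C and calcium kinase arms in each rat (points; bar, group mean; log axis in each panel with its own range). *Rgs2* and *Gprc5b* have their highest group mean in WT, with WT rats widely spread, and the other 6 their lowest, with no HYP or PCC rat of those 6 in the WT range.

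HYP vs. WT asks which of these changes were present in the hyperplastic group. By the histology of the study, early PCC was already seen in the MENX adrenal at 4 to 5 months, so these rats need not have been free of it. It uses the same WT rats as PCC vs. WT, so the 2 comparisons are not independent. *Plch2* (26.5-fold higher), *Dgkh* (8.37-fold), *Prkca* (5.77-fold), *Pde3a* (5.46-fold) and *Adcy1* (5.03-fold) rose most among members with separate groups, and *Creb3l1* (6.41-fold lower), *Crem* (4.06-fold), *Dgka* (1.78-fold) and *Creb3* (1.38-fold) were those that fell with separate groups. Of 62 members listed, 61 were tested, of which 36 were higher, 11 lower and 14 not called. That is 77.0% called, 59.0% higher and 18.0% lower, beside 72.1%, 39.5% and 32.5% of all 4108 genes tested. The same shares of all genes stand beside the counts by role that follow for HYP vs. WT. The median log2 fold change was 0.97 over members and -0.37 over all genes tested. The groups did not overlap in 35 members, 57.4% of those tested, and in 56.3% of all genes. The call held in each of 10 fits that left out 1 rat for 28 of the 47 members. Without WT5, 41 members were higher and 11 lower. The number higher was 23 without WT4, and the number lower was 6 without HYP4 or without HYP5. With the summed listed counts as library size 44 were higher and 4 lower, while the median of all genes moved up by 0.46, and with the recovered library totals 38 were higher and 6 lower. *Creb3*, *Dgka*, *Prkcd*, *Rapgef3* and *Rapgef4* were among those not called under the first of these scalings, and *Rapgef3* and *Rapgef4* among those not called under the last.

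By role, the values given above showed *Adcy1* higher in HYP (log2 fold change 2.33 ± 0.43 SE, adjusted *p* = 0.00457). Of the phosphodiesterases *Pde3a* (log2 fold change 2.45 ± 0.30 SE, adjusted *p* = 0.000557), *Pde3b* (0.89), *Pde4dip* (1.00) and *Pde9a* (1.70), a cyclic GMP hydrolase, were higher and *Pde2a* (-0.77) lower. *Prkar1b* was higher (log2 fold change 1.14 ± 0.31 SE, adjusted *p* = 0.0282), a call lost without HYP5, WT1, WT3 or WT4 (adjusted *p* = 0.0555 to 0.0649), and so was *Pkib* (log2 fold change 1.86 ± 0.24 SE, adjusted *p* = 0.000771). *Rapgef3* (-0.96) and *Rapgef4* (-0.79) were lower. *Crem* (log2 fold change -2.02 ± 0.33 SE, adjusted *p* = 0.00232) and *Creb3l1* (log2 fold change -2.68 ± 0.45 SE, adjusted *p* = 0.00263) fell in all 10 fits that left out 1 rat, while *Creb3* (log2 fold change -0.46 ± 0.14 SE, adjusted *p* = 0.0423) lost its call in 8 of them, those without WT1 and WT2 excepted, and its log2 fold change was 0.00296 with the summed listed counts as library size. *Creb3l2* (0.84 ± 0.32, adjusted *p* = 0.0975) and *Creb5* (-0.89 ± 0.29, adjusted *p* = 0.0569) did not pass.

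Among G protein genes *Gnai1* (log2 fold change 1.33 ± 0.26 SE, adjusted *p* = 0.00622), *Gnao1* (log2 fold change 1.29 ± 0.30 SE, adjusted *p* = 0.0118), *Gng2* (log2 fold change 1.10 ± 0.19 SE, adjusted *p* = 0.00288) and *Gng3* (log2 fold change 1.69 ± 0.15 SE, adjusted *p* = 0.000111) were higher in HYP. Of 9 RGS members tested 6 were higher, *Rgs4* (log2 fold change 2.01 ± 0.16 SE, adjusted *p* = 6.07e-05), *Rgs9* (log2 fold change 1.54 ± 0.38 SE, adjusted *p* = 0.0169), *Rgs17* (1.80), *Rgs8* (2.28, and without WT5 2.88, adjusted *p* = 0.000389), *Rgs3* (1.00) and *Rgs7* (0.82). *Rgs2* was lower with 4 of 5 HYP rats below the WT range (log2 fold change -3.34 ± 0.83 SE, adjusted *p* = 0.0174), and without HYP2 its log2 fold change was -3.99, adjusted *p* = 0.0132. *Gprc5b* was lower (log2 fold change -3.52 ± 0.73 SE, adjusted *p* = 0.00772), although every HYP rat was above WT5. *Plch2* (log2 fold change 4.73 ± 0.30 SE, adjusted *p* = 1.58e-05) and *Plcd4* (log2 fold change 1.24 ± 0.33 SE, adjusted *p* = 0.023) were higher, the latter not without WT3 or WT4 (adjusted *p* = 0.0575 to 0.0601). *Dgkh* (log2 fold change 3.06 ± 0.38 SE, adjusted *p* = 0.000573) and *Dgki* (log2 fold change 2.00 ± 0.34 SE, adjusted *p* = 0.00281) were higher and *Dgka* lower (log2 fold change -0.83 ± 0.18 SE, adjusted *p* = 0.00927). *Prkca* was higher (log2 fold change 2.53 ± 0.32 SE, adjusted *p* = 0.000698) and *Prkcd* lower (log2 fold change -0.89 ± 0.25 SE, adjusted *p* = 0.0284), the latter not without HYP2, HYP4, HYP5 or WT4 (adjusted *p* = 0.0577 to 0.0748). Of the calmodulin kinases *Camk1d*, *Camk2b* and *Camk4* were higher (1.38, 1.03 and 1.35) and the kinase inhibitor *Camk2n2* did not pass (-1.84, adjusted *p* = 0.0636). *Gucy1a3* (log2 fold change 0.92 ± 0.30 SE, adjusted *p* = 0.0524) and its partner subunit *Gucy1b3* (0.91, adjusted *p* = 0.0589) did not pass, and *Prkg2*, a kinase that cyclic GMP activates, was higher (0.92, adjusted *p* = 0.0472) with overlap. *Pde4a*, *Pde7a*, *Plcd3* and *Rgs22*, members through a comparison with HYP, did not pass either (-0.62, 0.49, -0.70 and 1.21). Among those higher or lower in HYP, the calls of *Creb3*, *Prkg2*, *Rapgef4*, *Camk1d*, *Camk4* and *Rgs7* were lost in 5 or more of the 10 fits that left out 1 rat, those of *Pde2a* and *Pde3b* in 4, and those of *Rgs3* and *Camk2b* in 1.

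PCC vs. HYP asks what differed between the 2 MENX groups, whose stage and age cannot be told apart. *Sphkap* (28.2-fold higher), *Pkib* (10.9-fold), *Rgs4* (4.97-fold), *Prkcb* (4.44-fold) and *Rapgefl1* (3.17-fold) rose most with separate groups, and, with separate groups too, *Gprc5b* (5.46-fold lower), *Crem* (4.88-fold), *Prkar2b* (3.60-fold), *Gucy1a3* (2.68-fold) and *Dgka* (2.61-fold) fell most. Of 61 members listed, 60 were tested, of which 17 were higher, 13 lower and 30 not called. Thus 30 of 60 were called, beside 44.4% of all 3148 genes tested, and 28.3% were higher and 21.7% lower, beside 21.8% and 22.6%. The median log2 fold change was 0.56 over members and 0.43 over all genes. The groups did not overlap in 31 members, 51.7% of those tested, and in 54.5% of all genes. Few calls were stable: 7 of the 30 held in all 10 fits that left out 1 rat and 23 were lost in at least 1, many of them in most. Leaving out HYP4 left 5 higher and leaving out HYP3 left 2 lower. DESeq2 with its own size factors gave 21 higher and 25 lower, the size factors of the authors 21 and 10, the summed listed counts 17 and 8, and the recovered library totals 22 and 9.

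The 7 members that held were *Crem* (log2 fold change -2.29 ± 0.37 SE, adjusted *p* = 0.00621), *Gprc5b* (log2 fold change -2.45 ± 0.39 SE, adjusted *p* = 0.00615), *Pkib* (log2 fold change 3.45 ± 0.40 SE, adjusted *p* = 0.00164), *Sphkap* (log2 fold change 4.82 ± 0.75 SE, adjusted *p* = 0.00516), *Rgs4* (log2 fold change 2.31 ± 0.33 SE, adjusted *p* = 0.00355), *Prkcb* (log2 fold change 2.15 ± 0.35 SE, adjusted *p* = 0.00679) and *Camk2n1* (log2 fold change 1.56 ± 0.29 SE, adjusted *p* = 0.01). In each of them all PCC rats lay on one side of all HYP rats. *Prkar2b* was lower (log2 fold change -1.85 ± 0.38 SE, adjusted *p* = 0.0176) and *Dgka* too (log2 fold change -1.38 ± 0.29 SE, adjusted *p* = 0.0175), both calls lost without HYP3 (adjusted *p* = 0.0521). *Gucy1a3* (log2 fold change -1.42 ± 0.33 SE, adjusted *p* = 0.0258) was lower and *Rapgefl1* (log2 fold change 1.66 ± 0.41 SE, adjusted *p* = 0.0302) higher, not called in 6 of the 10 fits each. *Plch2* (0.97 ± 0.37, adjusted *p* = 0.142), *Prkca* (0.65 ± 0.28, adjusted *p* = 0.233) and *Dgkh* (1.48 ± 0.46, adjusted *p* = 0.0688), which had left the WT range in HYP, did not pass between PCC and HYP. Of the larger differences with overlap, *Camk2a* was higher (log2 fold change 2.30 ± 0.60 SE, adjusted *p* = 0.0401), as was *Gng4* (2.597), and *Creb3l1* was lower (log2 fold change -1.95 ± 0.52 SE, adjusted *p* = 0.0417), as were *Pde1a* (-2.16) and *Gucy1a2* (-2.04). The call of *Camk2a* was lost without HYP1, HYP2, HYP3, HYP4, HYP5, PCC2, PCC3 or PCC4 (adjusted *p* = 0.0561 to 0.112), and without PCC4 its log2 fold change was 1.66, adjusted *p* = 0.0763. That of *Gng4* was lost without HYP1, HYP2, HYP3, HYP4, HYP5, PCC2, PCC3 or PCC4 (adjusted *p* = 0.062 to 0.0939), with 1.88, adjusted *p* = 0.0649 without PCC4. That of *Creb3l1* was lost without HYP1, HYP3, HYP4, HYP5, PCC1, PCC2, PCC3 or PCC4 (adjusted *p* = 0.0621 to 0.115), with -2.61, adjusted *p* = 0.00435 without PCC5. *Pde1a* lost its call in 1 of the 10 fits and *Gucy1a2* in 6. *Camkk1*, *Dgkb* and *Pde7b*, listed for this comparison alone, did not pass (0.68, -1.38 and -1.16).

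**Figure D5:**
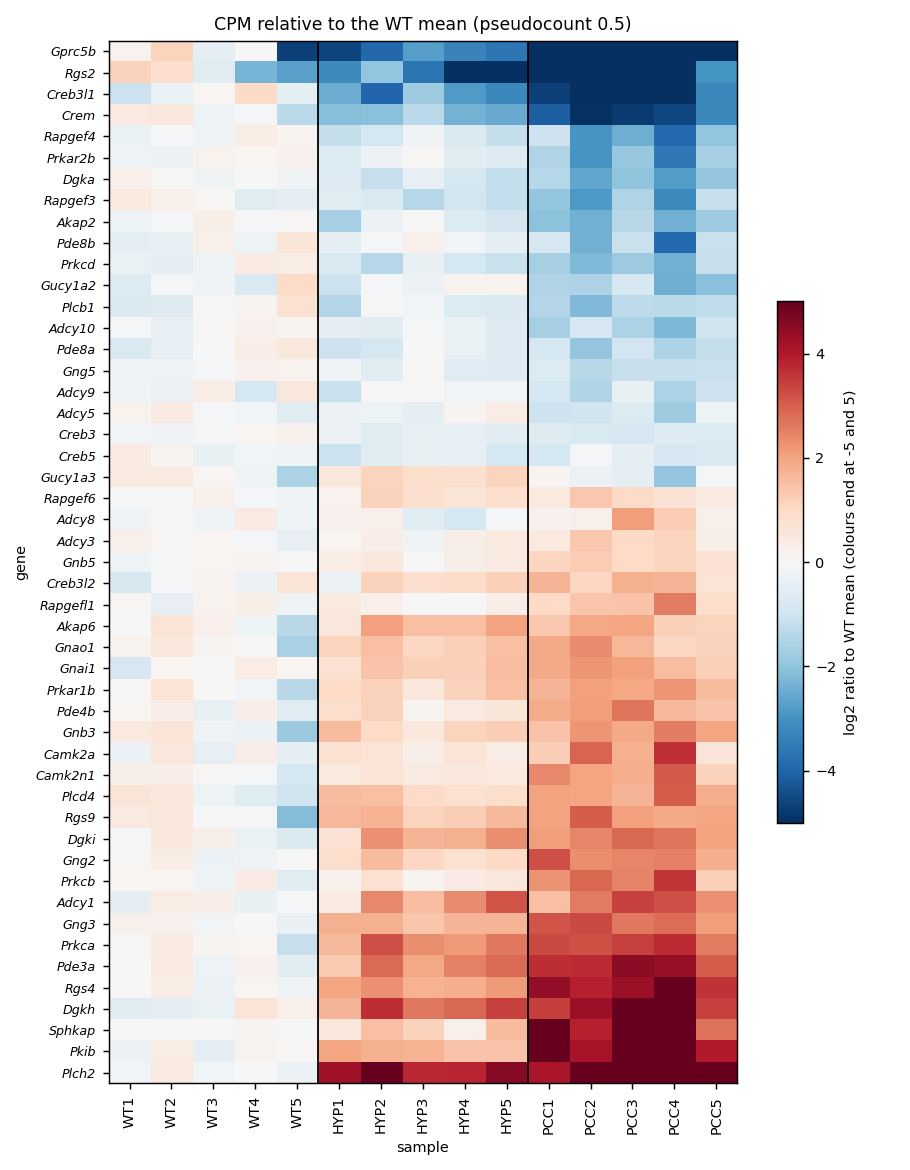
The 49 genes with values in all 15 rats among those described sample by sample (rows, ordered by their mean in PCC), as log2 of CPM plus a pseudocount of 0.5 over the WT mean plus 0.5, with colours ending at -5 and 5. *Gprc5b*, *Rgs2*, *Creb3l1* and *Crem* form the blue end and *Plch2*, *Pkib*, *Sphkap* and *Dgkh* the red end, and in WT5 *Gprc5b*, *Rgs2*, *Rgs9* and *Gnb3* are blue among WT rats.

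Genes around the members were taken from written lists. Of 44 receptors known to raise or lower cyclic AMP, 15 were tested in PCC vs. WT, of which 11 were higher and 3 lower, and 12 in HYP vs. WT, of which 7 were higher and 3 lower. Of all genes tested 46.7% were higher and 38.5% lower in PCC vs. WT (85.2% called), and 39.5% and 32.5% in HYP vs. WT (72.1% called). In the brackets that follow, the CPM of the first group of the comparison stands against that of the other, each ± SD with n = 5, before the log2 fold change ± SE and its adjusted *p*. *Adora2a*, an adenosine receptor, was higher in PCC (770.3 ± 657 against 7.45 ± 8.02 CPM, 6.66 ± 0.82, adjusted *p* = 0.00027), as were *Sctr*, the secretin receptor (74.4 ± 31.2 against 1.90 ± 1.01 CPM, 5.24 ± 0.50, adjusted *p* = 9.87e-05), *Gipr*, the receptor of the incretin GIP (80.6 ± 131 against 1.52 ± 2.20 CPM, 5.71 ± 1.33, adjusted *p* = 0.0069), and *Adcyap1r1*, the PACAP receptor of chromaffin cells (278 ± 50.4 against 61.2 ± 30.2 CPM, 2.14 ± 0.38, adjusted *p* = 0.00165). The Gi-coupled *Sstr1* (75.2 ± 17.9 against 7.96 ± 4.91 CPM, 3.19 ± 0.47, adjusted *p* = 0.000611) and *Npy1r* (42.6 ± 19.7 against 5.06 ± 2.11 CPM, 3.03 ± 0.44, adjusted *p* = 0.000577) were higher too. The receptors that fell by edgeR's test were *Sstr3* (1.34 ± 1.46 against 5.32 ± 1.75 CPM, -1.99 ± 0.58, adjusted *p* = 0.0204), with overlap, and *Vipr2* (1.12 ± 0.62 against 2.54 ± 0.679 CPM, -1.21 ± 0.40, adjusted *p* = 0.0384). *Mrap*, the partner of the ACTH receptor and also a cortex marker here, was lower too (87.4 ± 66.5 against 526 ± 59.0 CPM, -2.62 ± 0.58, adjusted *p* = 0.00533), while the summed cortex markers went from 30129 to 58474 CPM in WT to 1024 to 15086 in PCC rats. In HYP, *Sctr* (33.1 ± 9.90 against 1.90 ± 1.01 CPM, 4.10 ± 0.38, adjusted *p* = 0.000181) and *Adcyap1r1* (149.7 ± 30.9 against 61.2 ± 30.2 CPM, 1.30 ± 0.34, adjusted *p* = 0.023) were also higher than in WT. Of 34 receptors that act on phospholipase C, 9 were tested in PCC vs. WT, of which 2 were higher, *Casr* and *Ntsr1*, and 4 lower, *Gnrhr*, *Adra1d*, *P2ry2* and *Chrm3*.

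Of 32 genes known to respond to CREB, 15 were tested in PCC vs. WT, of which 13 were lower and 1 higher (median -3.20 on the log2 scale), beside 38.5% lower, 46.7% higher and a median of 0.44 over all genes tested. In HYP vs. WT 16 were tested, of which 13 were lower and 1 higher (median -2.19), beside 32.5%, 39.5% and -0.37 over all genes. For PCC vs. HYP 6 were tested, of which 1 was higher and 1 lower, beside 21.8% and 22.6% of all genes tested. *Crem* and *Rgs2* are in this list too. *Nfil3*, a repressor of transcription, was lower in PCC (25.5 ± 36.8 against 1119.9 ± 719.9 CPM, -5.49 ± 0.96, adjusted *p* = 0.00151), and so were the orphan nuclear receptor genes *Nr4a1* (129 ± 185 against 1169.7 ± 401 CPM, -3.20 ± 0.79, adjusted *p* = 0.00932), *Nr4a2* (20.3 ± 24.8 against 335 ± 292 CPM, -4.08 ± 0.93, adjusted *p* = 0.00628) and *Nr4a3* (27.5 ± 39.6 against 709.8 ± 343 CPM, -4.72 ± 0.93, adjusted *p* = 0.0028), which are also known as immediate early genes. *Fosb* (8.38 ± 12.8 against 200.0 ± 173 CPM, -4.61 ± 1.26, adjusted *p* = 0.0155) and *Junb* (112 ± 148 against 936 ± 944 CPM, -3.10 ± 1.00, adjusted *p* = 0.0338), immediate early genes of the AP-1 family, were lower with groups that overlapped. *Star*, which carries cholesterol into mitochondria for steroid synthesis and marks cortex, was lower (1547 ± 1059 against 8883 ± 3431 CPM, -2.54 ± 0.66, adjusted *p* = 0.0117), and *Scg2*, a secretory granule protein that marks chromaffin cells, was the gene that was higher (4614 ± 2337 against 952 ± 426 CPM, 2.23 ± 0.47, adjusted *p* = 0.00387). In 6 of the 13 that fell in PCC vs. WT the groups did not overlap, and in 2 of the 13 that fell in HYP vs. WT, while of all genes tested 65.7% and 56.3% did not overlap.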

How the data were processed

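Polyadenylated RNA of adrenal medulla from 5 WT, 5 HYP and 5 PCC rats had been sequenced. Per the labels and the methods of the study, the authors mapped reads to the rat genome Rn06 with HISAT2 2.0.5, counted them per gene with featureCounts 1.5.0-p3 and compared groups with DESeq2. The deposited tables give, per sample, the read count, a signal that is this count divided by the authors' size factor, and FPKM, which the authors derived from count, gene length and library total. Each table holds the genes with an adjusted p-value under 0.05 by the authors out of those tested (PCC vs. WT 18790, HYP vs. WT 18057, PCC vs. HYP 17454), numbers recovered from the deposited p-values and adjusted p-values. The authors' log2 fold changes were not used. Whether counting used strand is not given in the sources used here.

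Counts were tested per table with edgeR 4.0.16 (R 4.3.3, limma 3.58.1; glmQLFit and glmQLFTest, TMM over listed genes, filterByExpr), and *p*-values were adjusted by Benjamini and Hochberg as if all genes the authors tested were present, with the unlisted ones not called. The scripts were tested on simulated data. SE is the size of the log2 fold change over the root of F. CPM use 1 scale over 15 rats. Its library sizes come from TMM over the listed genes with values in all rats that passed the filter. Their geometric mean was set to that of the library totals recovered from count, length and FPKM (16315018 to 23831269 reads). These effective sizes ran from 14731954 (WT5) to 23401724 (PCC5). A ratio of CPM can thus differ slightly from the fitted fold change. Levels were compared between genes only as FPKM. Shares of summed FPKM cover only members with values in all rats, so genes that the authors had not called are not in them. A gene at 0 was given a floor of 3 counts per library, which covers counting error only. Replicates were separate animals by the methods of the study. No pair of replicates agreed within sampling noise. Labels give all groups numbers 1 to 5, but these did not pair samples: same-numbered samples of different groups had correlated deviations of -0.247 to 0.264 (median 0.0955, 15 pairs) against -0.350 to 0.405 (median -0.0188, 60 pairs) for other numbers. Sample by sample values are given for all tested cyclases, PKA subunits, PKA inhibitors and CREB family genes, for *Sphkap* and *Gprc5b*, for up to 2 members per direction of each other role with the largest change in PCC vs. WT, and for the 5 largest per direction in the other comparisons. Members, gene lists and tests were chosen with earlier results of these data known. Alternatives were DESeq2 1.42.0, other scalings and filters, adjustment over listed genes, a replicate block, one fit over all samples and leaving out each rat. Promoters were matched by symbol, and their coordinates (GRCr8) are not those of the tables (Rn06). One member counted among the 114 is not reported here.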

Additional observations from a re-analysis of the deposited data

Results flagged for a closer look

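In 157 sets of 5 rats of one group, 1 for each gene given sample by sample and each group, 13 held a rat whose gap to the nearest other, as a share of the whole range, was above Dixon's 95% critical value. Chance flags about 1 in 20 such sets. In PCC rats these were *Creb3l1* (PCC5 at 38.5 CPM, next 13.7), *Rgs2* (PCC5 at 48.2, next 10.5), *Rgs4* (PCC4 at 3712, next 1765), *Plcd4* (PCC4 at 52.6, next 26.0), *Rapgefl1* (PCC4 at 6.46, next 2.57), *Rgs9* (PCC2 at 111, next 56.1) and *Ppp3cb* (PCC1 at 99.4, next 74.4), all high, and *Plcb1* (PCC2 at 16.7, next 28.8), low. In HYP rats they were *Camk2n1* (HYP2 at 22.9, next 20.1), high, and *Adcy9* (HYP1 at 29.7, next 58.7) and *Gng3* (HYP3 at 39.5, next 49.3), both low. In WT rats they were *Gucy1a2* (WT5 at 6.92, next 3.15) and *Sphkap* (WT4 at 0.0638, a single read where the others had none), both high. PCC4 held 3 of the 13, PCC2 and PCC5 held 2 each and 6 other rats 1 each. Without the rat in question the calls of *Creb3l1*, *Rgs2*, *Rgs4*, *Plcd4*, *Rapgefl1*, *Rgs9*, *Plcb1* and *Gucy1a2* in PCC vs. WT held, and that of *Ppp3cb* did not (log2 fold change 0.28, adjusted *p* = 0.140). In PCC vs. HYP the calls of *Plcb1* without PCC2 (-0.93, adjusted *p* = 0.0745) and of *Gng3* without HYP3 (0.95, adjusted *p* = 0.0532) were lost, and *Adcy9* was called without HYP1 (-1.10, adjusted *p* = 0.0348). PCC5 also had the highest cortex marker level of the PCC rats, 0.362 against 0.0265 to 0.264, and PCC4 the lowest, and the part of this in their values was not tested.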

How the results depend on the processing

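The counts of members called are those that depend on processing. For PCC vs. WT the 58 higher and 28 lower members stayed within 1.5 times under all settings run except that 15 were lower with the summed listed counts as library size. Leaving out 1 rat gave 48 to 57 higher and 21 to 28 lower. For HYP vs. WT (36 higher, 11 lower) the number lower was 4 with the summed listed counts, 6 with the recovered library totals and 7 in one fit over all samples. Leaving out 1 rat gave 23 (without WT4) to 41 (without WT5) higher and 6 (without HYP4 or HYP5) to 11 lower. For PCC vs. HYP (17 higher, 13 lower) adjustment over the listed genes tested gave 33 higher and 25 lower, DESeq2 25 lower and the summed listed counts 8 lower. Leaving out 1 rat gave 5 (without HYP4) to 20 (without PCC5) higher and 2 (without HYP3) to 14 (without PCC5) lower. The number higher was also 6 without HYP3, 8 without PCC3, 9 without PCC2, HYP2 or HYP5 and 11 without PCC4, and the number lower 7 without PCC2, HYP4 or HYP5 and 8 without PCC3. Adjusting over listed genes alone raises calls by construction, and for the other settings the cause was not tested.

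The replicate numbers did not pair the samples. With a replicate block 54 members were higher and 25 lower in PCC vs. WT, 31 and 8 in HYP vs. WT, and 4 and 6 in PCC vs. HYP. Of the genes given sample by sample, 2 changed direction, both with the summed listed counts: *Prkaca* in PCC vs. WT (log2 fold change 0.0924) and *Creb3* in HYP vs. WT (0.00296). Over those genes, settings other than leaving out a rat kept direction and call in 983 cases, added a call in 59 and lost one in 58, and leaving out a rat kept them in 1077, added one in 28 and lost one in 125. The median of all genes moved by more than 0.1 on the log2 scale with the summed listed counts (PCC vs. WT 0.50, HYP vs. WT 0.46, PCC vs. HYP 0.15) and with the recovered library totals (0.29, 0.19 and 0.22 in that order). It also did for PCC vs. HYP with DESeq2 (-0.17), the authors' size factors (0.11) and one fit over all samples (0.14).

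Genes that the authors had not called are missing from the tables, so a member absent from a comparison was not analysed there, and shares of members called are high by construction. Members under about 1 CPM rest on few reads per rat. *Camk1g*, *Pde1c*, *Pde6c* and *Rgs8* were too low to test in PCC vs. WT, as were *Camk1g* in PCC vs. HYP and *Sphkap* in HYP vs. WT.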

Other observations

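Genes around calcium stores and inositol phosphates, none of them members, were read as a list of 33, of which 16 were tested in PCC vs. WT: 11 were higher, 4 lower and 1 not called, where of all genes tested 46.7% were higher and 38.5% lower. In the brackets the CPM of the first group stands against that of the other, each ± SD with n = 5, before the log2 fold change ± SE and the adjusted *p* of edgeR's test. *Ryr2*, a calcium release channel of the endoplasmic reticulum, was higher in PCC (151 ± 34.2 against 26.4 ± 10.4 CPM, 2.48 ± 0.32, adjusted *p* = 0.000321) and in HYP (107 ± 34.9 against 26.4 ± 10.4 CPM, 2.01 ± 0.30, adjusted *p* = 0.00142) than in WT, with no overlap in either. *Atp2a3*, a calcium pump of that membrane, was higher in PCC (56.3 ± 39.7 against 3.63 ± 1.36 CPM, 3.90 ± 0.57, adjusted *p* = 0.00058) and also in PCC vs. HYP (56.3 ± 39.7 against 5.01 ± 1.36 CPM, 3.34 ± 0.52, adjusted *p* = 0.00516). *Stim1*, a sensor of store calcium, rose (70.9 ± 15.3 against 37.6 ± 3.49 CPM, 0.88 ± 0.17, adjusted *p* = 0.00232) and *Stim2*, its relative, fell (26.9 ± 7.01 against 45.5 ± 10.1 CPM, -0.78 ± 0.21, adjusted *p* = 0.0141). *Orai2*, a channel that such sensors open, rose (37.7 ± 5.00 against 9.94 ± 4.11 CPM, 1.88 ± 0.32, adjusted *p* = 0.00121). The kinases of inositol trisphosphate went apart, *Itpka* up (11.2 ± 5.54 against 0.886 ± 0.375 CPM, 3.62 ± 0.42, adjusted *p* = 0.000206) and *Itpkc* down (20.5 ± 4.29 against 71.2 ± 19.5 CPM, -1.83 ± 0.24, adjusted *p* = 0.000387). So did the kinases that make its precursor, *Pip5k1c* up (285 ± 62.7 against 117 ± 13.0 CPM, 1.25 ± 0.18, adjusted *p* = 0.000539) and *Pip5k1a* down (98.5 ± 13.6 against 157 ± 14.7 CPM, -0.70 ± 0.15, adjusted *p* = 0.00373). In HYP vs. WT 11 of the list were tested, with 6 higher and 2 lower (39.5% and 32.5% of all genes), and in PCC vs. HYP 9, with 2 higher (21.8% of all genes) and the rest not called.

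Of 44 other regulators of G proteins and calmodulin, 20 were tested in PCC vs. WT, of which 15 were higher and 2 lower, beside 46.7% and 38.5% of all genes tested, of which 85.2% were called. *Rgs5*, a relative of *Rgs4* that also marks pericytes, was higher in PCC (1102 ± 687 against 23.6 ± 4.59 CPM, 5.51 ± 0.45, adjusted *p* = 7.76e-05), in HYP vs. WT (87.4 ± 20.7 against 23.6 ± 4.59 CPM, 1.88 ± 0.20, adjusted *p* = 0.000287) and in PCC vs. HYP (1102 ± 687 against 87.4 ± 20.7 CPM, 3.50 ± 0.41, adjusted *p* = 0.00164). The pericyte and smooth muscle list stood at 0.97 ± 0.338 in WT, 1.42 ± 0.421 in HYP and 2.15 ± 0.947 in PCC with 3 of its 11 genes measured. In PCC vs. WT 2 of these 3, *Notch3* and *Acta2*, were higher and 1, the pericyte marker *Kcnj8*, was lower. The part of pericytes in the level of *Rgs5* was not tested. *Adrbk2*, a receptor kinase that desensitises receptors, rose (76.3 ± 16.8 against 10.4 ± 4.35 CPM, 2.83 ± 0.33, adjusted *p* = 0.000202), as did its relative *Adrbk1* (87.0 ± 18.0 against 46.8 ± 2.78 CPM, 0.86 ± 0.16, adjusted *p* = 0.00204). *Pcp4* (15.6 ± 14.6 against 1.08 ± 0.547 CPM, 3.79 ± 0.72, adjusted *p* = 0.0023) and *Gap43* (90.9 ± 17.4 against 12.5 ± 6.67 CPM, 2.81 ± 0.42, adjusted *p* = 0.000651), whose products bind calmodulin, rose, as did *Ncald*, a neuronal calcium sensor (266 ± 72.8 against 48.0 ± 16.6 CPM, 2.43 ± 0.30, adjusted *p* = 0.000267). Those that fell were *Marcksl1*, a substrate of protein kinase C (6.31 ± 3.64 against 15.1 ± 4.26 CPM, -1.27 ± 0.38, adjusted *p* = 0.0248), and *Chp1*, a calcineurin-like protein (135 ± 26.6 against 199.7 ± 21.7 CPM, -0.60 ± 0.16, adjusted *p* = 0.0148). In HYP vs. WT all 8 tested were higher, where 39.5% of all genes tested were higher and 72.1% called.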
